A study of Homo sapiens with 15 samples.

Results

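The human mitochondrial genome carries 37 genes, and all of them are described here: 22 transfer RNAs (tRNAs), the ribosomal RNAs (rRNAs) RNR1 and RNR2, and 13 messenger RNAs (mRNAs). They were chosen as every gene that the count table places on the mitochondrial chromosome, 37 of 50037 genes, with no use of their counts. The libraries hold small RNA of cells labelled HEK-293, a wild-type human embryonic kidney line, although the title of the series names macrophages. Cells were kept for 18 h with 20 µM GKT136901, which blocks the NADPH oxidases NOX1 and NOX4, together with the lipids that lipoprotein lipase (LPL) releases from very low-density lipoprotein (VLDL), with those lipids alone (LPL:VLDL), or with VLDL (library titles add pcDNA, which no label explains). Each group had 5 libraries, 1 from each of experiments 2 to 6, so VLDL in some form was present in every group and no untreated group is analysed here. No label states that experiments used separately grown cells, so the p-values refer to the spread among libraries, and some of that spread may be technical.

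Both strands of the mitochondrial genome are transcribed as long precursors that run through many genes. The tRNA genes lie between the rRNA and mRNA genes, and the enzymes that cut out a tRNA at its ends, RNase P and ELAC2, thereby also free its neighbours, a scheme known as tRNA punctuation. The rRNAs build the mitochondrial ribosome, the mRNAs encode subunits of the respiratory chain and of the ATP synthase, and the tRNAs serve the translation of these mRNAs. Plus-strand genes are here those that the annotation reads in the direction of the reference sequence, and minus-strand genes those it reads against it. There are 14 tRNAs, both rRNAs and 12 mRNAs on the plus strand, and 8 tRNAs and the mRNA ND6 on the minus strand. The strand of a gene is the annotation's. Reads were counted without regard to their own strand.

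The 7 tRNAs below carry most of the tRNA results. They are given 5′ to 3′ in the sense of the gene, from GENCODE 29 on GRCh38, with the anticodon in capitals. TRNF (phenylalanine) is the first gene of the genome by position, and TRNV (valine) stands between the rRNAs. TRNH (histidine), TRNS2 (serine) and TRNL2 (leucine) are 3 tRNAs in a row, and TRNT (threonine) and TRNP (proline) are neighbours on opposite strands.
TRNF (chrM:577-647, plus strand): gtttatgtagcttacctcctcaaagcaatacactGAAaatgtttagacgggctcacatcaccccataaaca
TRNV (chrM:1602-1670, plus strand): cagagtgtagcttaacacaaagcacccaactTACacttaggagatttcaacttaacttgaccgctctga
TRNH (chrM:12138-12206, plus strand): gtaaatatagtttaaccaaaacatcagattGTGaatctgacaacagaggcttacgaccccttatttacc
TRNS2 (chrM:12207-12265, plus strand): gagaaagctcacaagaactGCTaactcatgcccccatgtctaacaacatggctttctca
TRNL2 (chrM:12266-12336, plus strand): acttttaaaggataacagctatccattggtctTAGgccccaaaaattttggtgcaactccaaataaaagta
TRNT (chrM:15888-15953, plus strand): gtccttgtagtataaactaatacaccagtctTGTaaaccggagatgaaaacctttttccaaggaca
TRNP (chrM:15956-16023, minus strand): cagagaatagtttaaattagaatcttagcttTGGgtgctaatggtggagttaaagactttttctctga
TRNS2 is the shortest of the 22, with 59 bases, and is known to lack the D arm found in other tRNAs.

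Total counts ran from 5076917 in replicate 2 of the GKT136901 + LPL:VLDL group to 9757123. Genes known from HEK-293 cells were at or near 0: the sum of 8 of them was 0 to 0.624 CPM (counts scaled to a library total of 1000000), with LIN28B and NEFM at 0 throughout. A sum of 17 myeloid genes was 26.3 to 122.8 CPM, led by the receptor CSF1R and the integrin chain ITGB2, with AIF1 and MPEG1 at 0. Markers of the labelled line were thus absent or close to it, whereas some myeloid markers were present in every library. Other myeloid markers were low as well. CD163 had 3 counts and MRC1 4 over all libraries, CD14 had 31 in 9 libraries and LYZ 30 in 6.

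The 37 genes together held 388945 counts, 0.293% of all. tRNAs took 50.8% of these counts, rRNAs 32.4% and mRNA fragments 16.8%. Plus-strand genes held 96.5% and minus-strand genes 3.46%. The 8 minus-strand tRNAs, of 22 in all, held 3.62% of the mitochondrial tRNA counts. ND6, 1 of the 13 mRNAs, held 9.66% of the mitochondrial mRNA counts. Counts were uneven within the classes: TRNF alone held 75.1% of the tRNA counts and RNR2 84.2% of the rRNA counts. In mRNA counts COX2, a subunit of cytochrome c oxidase, led with 26.3%.

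A count was present in all 15 libraries for 27 of the 37 genes, and 29 had counts enough to be tested. The 8 others were tRNAs. TRNQ (glutamine), TRNN (asparagine), TRNS1 (the other serine tRNA) and TRNK (lysine) had no count in any library, which allows a level of up to 0.0226 CPM over all libraries (3 counts, counting error only). TRNM (methionine) had 34 counts over all libraries, TRNW (tryptophan) 16, TRNC (cysteine) 77 and TRND (aspartate) 88. Of these 8 untested tRNAs, 4 lie on the plus strand and 4 on the minus strand. Modified bases are known to affect how tRNAs are copied into sequencing libraries, and counts of different tRNAs are therefore not read here as their relative amounts in the cell.

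Compared per length, the level of the genes spanned several orders of magnitude along the genome. Levels are given as CPM scaled by TMM factors, which even out differences in library composition, per kb of gene, as the mean over 15 libraries. TRNF had 15729 ± 5609 CPM per kb (SD, n = 15), TRNH 2726 ± 803 and TRNS2 1504 ± 493. RNR2, the large rRNA, followed with 517 ± 124 CPM per kb. TRNP came next with 489 ± 117 CPM per kb and led the minus strand. TRNY (tyrosine, 192 ± 79.2 CPM per kb), TRNL1 (leucine, 191 ± 47.7), COX2 (181 ± 75.1), TRNL2 (161 ± 64.4) and RNR1, the small rRNA (159 ± 37.8), were neighbours in this order whose spreads overlapped.

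**Figure D1:**
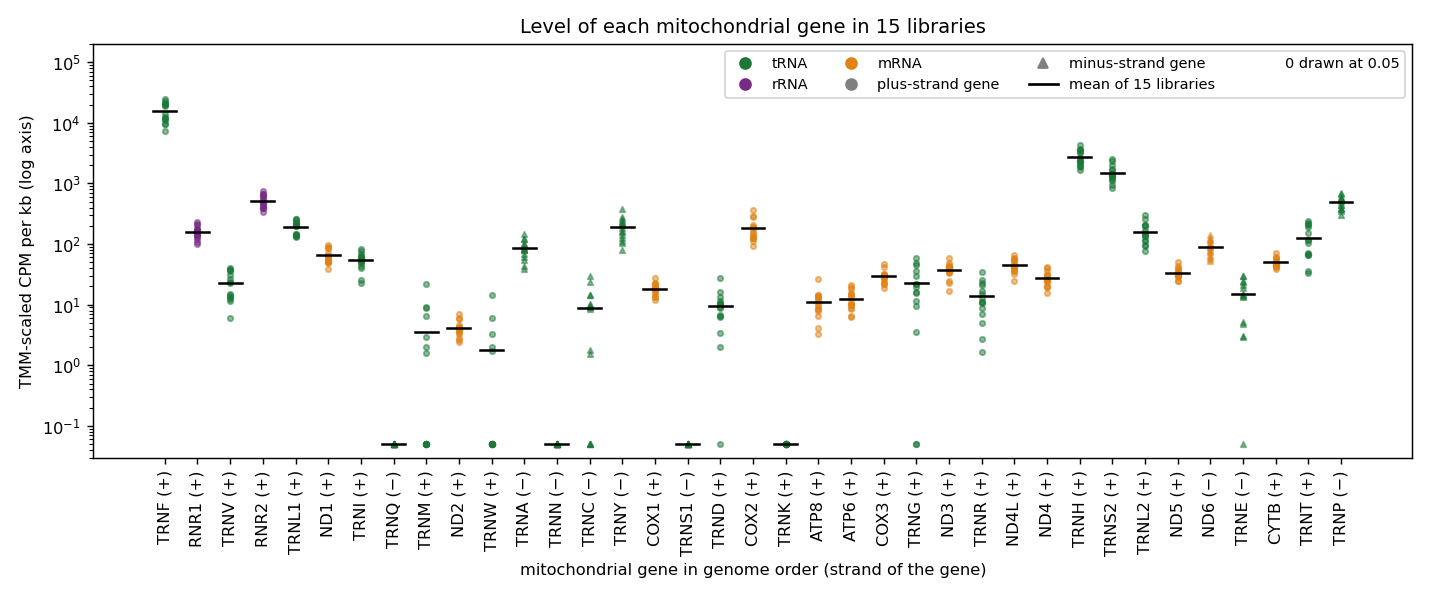
Level of each mitochondrial gene in genome order, as TMM-scaled CPM per kb on a log axis, with 1 point per library, circles for plus-strand and triangles for minus-strand genes, and a bar at the mean of 15 libraries. TRNF stands at the left with a mean of 15729 CPM per kb, and the means of the row TRNH, TRNS2, TRNL2 step down from 2726 to 161. TRNQ, TRNN, TRNS1 and TRNK lie at 0.

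Genes next to each other did not share a level. TRNF and RNR1 touch with no base between them, yet TRNF was 99.2 times as high per kb as RNR1, with a range of 54.6 to 140.0 times over the libraries. Much of this ratio comes from the division by length. TRNF has 71 bases and held 148414 counts, and RNR1 has 954 bases and held 19943. RNR2 was 3.26 times as high as RNR1 per kb, within a narrow range of 2.69 to 3.98. TRNV, which lies between these rRNAs, had 22.9 CPM per kb. In the row of 3 tRNAs, each gene had a lower mean per kb than the one before. TRNH was 1.81 times as high as TRNS2, with a range of 0.952 to 2.79 over the libraries, so their order did not hold in each. TRNH was 16.9 times as high as TRNL2 (11.6 to 35.4 over the libraries) and TRNS2 was 9.34 times as high (4.55 to 17.9). TRNP on the minus strand was 3.84 times as high per kb as its plus-strand neighbour TRNT, with 2.27 as the lowest ratio of any library.

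The mRNA fragments varied less along the genome. Per kb the 12 plus-strand mRNAs ran from 4.14 CPM for ND2, a subunit of complex I, to 181 for COX2, with a median of 31.7 CPM per kb. COX2 was 9.81 times as high per kb as COX1, which encodes another subunit of the same enzyme. ND6, a complex I subunit and the mRNA of the minus strand, had 90.6 ± 27.3 CPM per kb. This level was above that of 11 of the 12 plus-strand mRNAs, whereas ND5, the gene that ND6 touches on the other strand, had 33.8 ± 6.93 CPM per kb. COX2 and ND6 were thus the mRNAs with the most counts per length. For ND6 these are counts at its position from either strand, so they are not a level of minus-strand RNA alone.

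How reads were assigned limits these levels. Reads of both strands were counted together, so a minus-strand gene such as ND6 can hold counts of plus-strand RNA. The counts cannot separate the strands. Of the 36 pairs of neighbouring genes, 20 touch with no base between them and 5 share bases, among them ATP8 and ATP6 with 46 bases and TRNI (isoleucine) and TRNQ, on opposite strands, with 3. A read over 2 genes, such as an uncut precursor would give, was not counted. Reads that map to several places were not counted either, and the nuclear genome holds copies of mitochondrial DNA. Windows of 20 bases identical to a nuclear transcript of GENCODE 29 made up 82.5% of COX1, 74.0% of ATP6, 70.2% of ND2, 65.9% of COX2, 50.2% of RNR2, 46.4% of ND6, and 0% of RNR1, TRNF and TRNH. Such windows were found in 17 of the 37 genes, and only transcripts were searched, not the rest of the nuclear genome. The part of this in the levels was not tested, and among the 4 tRNAs without a count TRNQ, TRNN and TRNK had 0% of windows in nuclear transcripts and TRNS1 2.0%.

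The comparison of GKT136901 + LPL:VLDL with LPL:VLDL asks what the inhibitor changes in cells that receive the lipid products. No gene passed the test, mitochondrial or other: 0 of 4099 had an adjusted p under 0.05 by edgeR's quasi-likelihood F test (0% called), 87 genes (2.12%) had an unadjusted p under 0.05, and 1 of them, TRNL2, was mitochondrial. DESeq2 and limma voom also called 0, with 128 and 119 genes at an unadjusted p under 0.05. In direction the mitochondrial genes leaned to the inhibitor: 25 of the 29 tested had a log2 difference above 0, with a median of 0.18, while 47.9% of all tested genes lay above 0, at a median of -0.019. This held for 9 of 10 plus-strand tRNAs (median 0.31), 3 of 4 minus-strand tRNAs (median 0.27), both rRNAs, 10 of 12 plus-strand mRNAs (median 0.17) and ND6. With the size factors of DESeq2 25 lay above 0, and under library-size scaling 27 did, at a median of 0.29. The median rested in part on single libraries: it was 0.092 without inhibitor replicate 2, 0.088 without LPL:VLDL replicate 4, 0.12 without LPL:VLDL replicate 5 and 0.29 without LPL:VLDL replicate 2. Genes of 1 precursor share their source, so the 29 are not separate observations. In bulk samples such as these, more RNA per cell and more cells of a type rich in it cannot be told apart.

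TRNL2 had 14.0, 21.7, 18.5, 12.3 and 14.6 CPM with GKT136901 + LPL:VLDL in experiments 2 to 6, and 10.9, 14.5, 8.11, 8.21 and 6.84 CPM with LPL:VLDL. It was higher with the inhibitor in every experiment, but the groups overlapped, since the LPL:VLDL library of experiment 3 exceeded 2 inhibitor libraries. The means were 16.2 ± 3.81 CPM with GKT136901 + LPL:VLDL and 9.71 ± 3.07 CPM with LPL:VLDL (SD, n = 5 each), and the log2 difference was 0.74 (SE 0.30), with an edgeR unadjusted p of 0.0195 and an adjusted p of 1.00.

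TRNP had 45.3, 37.8, 47.0, 29.9 and 40.5 CPM with GKT136901 + LPL:VLDL and 26.2, 37.0, 33.8, 20.3 and 27.1 CPM with LPL:VLDL, in the same order of experiments. It too was higher with the inhibitor in each experiment, by little in experiment 3, and the groups overlapped. The log2 difference was 0.47 (SE 0.25), and 0.49 (SE 0.15) with the experiment as a block. ATP6, a subunit of the ATP synthase, had 13.4, 10.3, 12.6, 4.23 and 14.4 CPM with GKT136901 + LPL:VLDL and 6.08, 10.5, 6.60, 5.69 and 6.84 CPM with LPL:VLDL, a log2 difference of 0.62 (SE 0.33). ATP6 was higher with the inhibitor in experiments 2, 4 and 6 and lower in experiments 3 and 5, and its LPL:VLDL library of experiment 3 stood apart from the rest of that group. Neither gene passed the test (edgeR adjusted p = 1.00 each). With the experiment as a block 0 genes were called, and 4 of the 29 had an unadjusted p under 0.05 (TRNL2, TRNP, TRNS2 and ATP6), against 3.68% of all tested genes.

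Higher with the inhibitor in all 5 experiments were 6 of the 29 tested mitochondrial genes: ND4L, ND4, TRNH, TRNS2, TRNL2 and TRNP. These are 20.7% of the 29, against 3.2% of all tested genes, and 0 of the 29 were lower in every experiment, against 3.32%. The 29 have more counts than most tested genes, and no share among genes of a matched level was computed for this count. Except TRNP the 6 genes lie in 1 stretch of the plus strand, from ND4L to TRNL2, in which each gene touches or overlaps the next. No mitochondrial gene had groups without overlap, as was the case for 0.146% of all tested genes on the higher side and 0.342% on the lower. TRNH had 179.5, 300.4, 246, 157 and 165 CPM with GKT136901 + LPL:VLDL and 133, 251, 243, 155 and 137 CPM with LPL:VLDL, with experiments 3 and 4 above the others in both groups. Its log2 difference was 0.19 (SE 0.25), and 0.20 (SE 0.11) with the experiment as a block (edgeR unadjusted p = 0.080).

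The comparison of GKT136901 + LPL:VLDL with VLDL sets the inhibitor and the lipid products together against whole VLDL, and it uses the same inhibitor libraries as the one before. Again no gene passed the test, with 0 of 4099 called (0%) by edgeR and 91 genes (2.22%) at an unadjusted p under 0.05, of which 1, TRNL2, was mitochondrial. DESeq2 and limma voom called 0, with 128 and 158 genes at an unadjusted p under 0.05. Of the 29 mitochondrial genes 25 had a log2 difference above 0, with a median of 0.25, while 49.6% of all tested genes lay above 0, at a median of -0.0042. The count was 25 under library-size scaling and also with the size factors of DESeq2. The median was 0.15 without inhibitor replicate 1 and 0.14 without VLDL replicate 5. By class, 8 of 10 plus-strand tRNAs (median 0.30), 3 of 4 minus-strand tRNAs (median 0.35), both rRNAs, 11 of 12 plus-strand mRNAs (median 0.24) and ND6 lay above 0.

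TRNL2 had 9.75, 6.52, 9.71, 10.1 and 5.54 CPM with VLDL, all below the lowest inhibitor library at 12.3 CPM. It was the 1 gene of the 29 whose groups did not overlap, against 0.195% of all tested genes on the higher side and 0.317% on the lower. Its means were 16.2 ± 3.81 CPM with GKT136901 + LPL:VLDL and 8.33 ± 2.14 CPM in VLDL libraries (SD, n = 5 each), and the log2 difference was 0.96 (SE 0.30), with an edgeR unadjusted p of 0.00339 and an adjusted p of 0.999. With the experiment as a block the difference was 0.95 (SE 0.23), with an adjusted p of 0.238.

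TRNV was a gene of low counts, with 1.66, 2.61, 2.17, 2.74 and 2.52 CPM in the inhibitor libraries and 0.791, 0.917, 0.418, 1.80 and 1.57 CPM with VLDL, and the groups overlapped. The log2 difference was 1.09 (SE 0.54). TRNF had 1602, 1728, 1364, 989 and 679.9 CPM with GKT136901 + LPL:VLDL and 1435, 886, 847, 790.3 and 515 CPM in VLDL libraries. It was higher with the inhibitor in every experiment, most in experiments 3 and 4, yet the groups overlapped, and the level also differed between experiments. The log2 difference of TRNF was 0.51 (SE 0.27), and 0.50 (SE 0.12) with the experiment as a block. Neither gene passed the test (edgeR adjusted p = 0.999 each, and 0.997 for TRNV and 0.238 for TRNF with the block). In the blocked fit 0 genes were called, and 6 of the 29 had an unadjusted p under 0.05 (TRNF, TRNV, ND4L, TRNH, TRNL2 and TRNP), against 4.32% of all tested genes.

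Higher with the inhibitor than with VLDL in each experiment were 9 of the 29 genes: TRNF, TRNV, TRNL1, TRNY, ATP8, ND4L, TRNL2, ND6 and TRNP. These are 31.0%, against 3.66% of all tested genes, and 0 were lower in every experiment, against 3.73%. Here too no share among genes of a matched level was computed. The 9 lie at both ends and in the middle of the genome, and 3 of them, TRNY, ND6 and TRNP, are on the minus strand. The sum of the 17 myeloid genes was 40.4 CPM ± 21.9 with GKT136901 + LPL:VLDL and 53.6 CPM ± 28.5 in VLDL libraries (SD, n = 5 each), lower with the inhibitor in 5 of 5 experiments. Against LPL:VLDL, at 49.6 CPM ± 41.2, it was lower with the inhibitor in 2 of 5, or 4 of 5 after TMM scaling. By edgeR 9 of the 17 myeloid genes were tested and 0 were called, with 1 of 9 above 0 against LPL:VLDL (median -0.24) and 0 of 9 against VLDL (median -0.33). CSF1R differed by -0.59 on the log2 scale against LPL:VLDL and by -0.33 against VLDL. ITGAM, an integrin chain with 90 counts in 11 libraries, had 0.207, 0, 0, 0 and 0 CPM with GKT136901 + LPL:VLDL, 1.39, 0.693, 0.116, 0.219 and 2.41 CPM with LPL:VLDL and 0.879, 1.22, 0.418, 1.69 and 0.602 CPM with VLDL (edgeR adjusted p = 1.00 against LPL:VLDL and 0.999 against VLDL). In the LPL:VLDL against VLDL comparison 4 of the 9 lay above 0, with a median of -0.069. The myeloid and the mitochondrial genes thus lay mostly on opposite sides of 0 in both comparisons with the inhibitor. The part of this difference in the mitochondrial values was not tested.

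**Figure D2:**
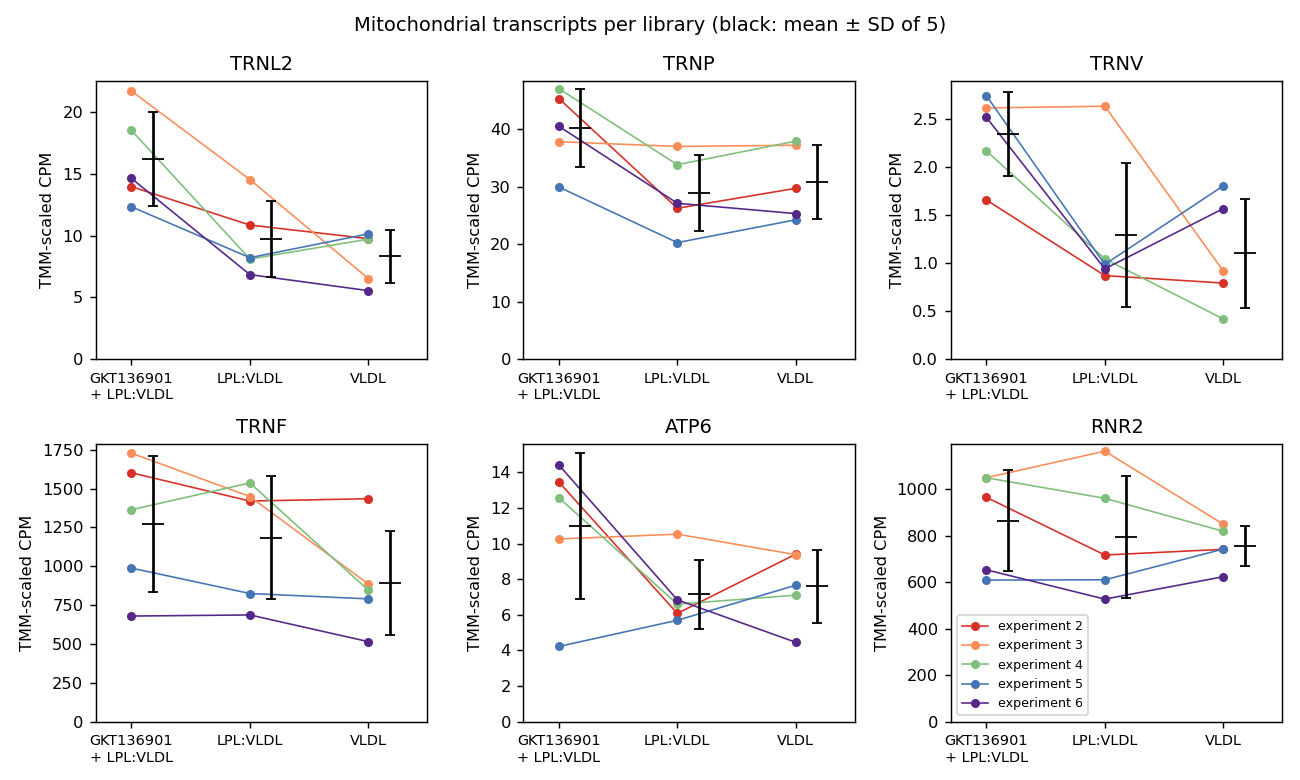
TMM-scaled CPM of 6 mitochondrial genes in each library, with GKT136901 + LPL:VLDL at the left and VLDL at the right, lines joining libraries of 1 experiment, and black marks for the mean ± SD of 5 libraries. In TRNL2 all 5 inhibitor libraries lie above all 5 VLDL libraries, while in TRNF and RNR2 the lines of the experiments are spaced further apart than the groups.

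The comparison of LPL:VLDL with VLDL asks what hydrolysis of the lipoprotein by LPL changes. Here the mitochondrial genes had no common direction: 15 of 29 had a log2 difference above 0, with a median of 0.076, against 50.7% of all tested genes. Across the table edgeR called 0 of 4099 genes (0%), while 77 (1.88%) reached an unadjusted p under 0.05, none of the 29 among them. DESeq2 and limma voom called 0, with 126 and 129 at an unadjusted p under 0.05. With library-size scaling 9 of 29 lay above 0, but that scaling moved the median of all tested genes to -0.11. None of the 29 was higher, and none lower, in all 5 experiments, against 3.44% and 3.46% of all tested genes, and none had groups without overlap (0.244% of all tested genes on the higher side, 0.317% on the lower). With the experiment as a block TRNF was the 1 of the 29 with an unadjusted p under 0.05, against 4.2% of all tested genes, and 0 of the 29 were called, against 0.0244%.

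TRNF had 1419.7, 1449, 1536, 825 and 687 CPM with LPL:VLDL, against the VLDL values above. Its log2 difference was 0.40 (SE 0.27) with an edgeR adjusted p of 0.999. With the experiment as a block the difference was 0.40 (SE 0.12), with an edgeR unadjusted p of 0.0020 and an adjusted p of 0.988. TRNF was higher with LPL:VLDL in experiments 3 to 6 and about equal in experiment 2. TRNL2 differed by 0.22 (SE 0.30) on the log2 scale. TRNT had 7.82, 10.1, 7.76, 4.38 and 4.29 CPM in LPL:VLDL libraries and 6.77, 15.9, 14.4, 4.73 and 2.41 CPM in VLDL libraries. Its log2 difference was -0.37 (SE 0.46), and -0.19 (SE 0.28) with the experiment as a block. In the VLDL group experiments 3 and 4 stood above the others. The minus-strand tRNAs were above 0 in 1 of 4 tested members (median -0.091) and the plus-strand tRNAs in 5 of 10 (median 0.033). With the experiment as a block these were 2 of 4 (median 0.0081) and 4 of 10 (median -0.029).

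**Figure D3:**
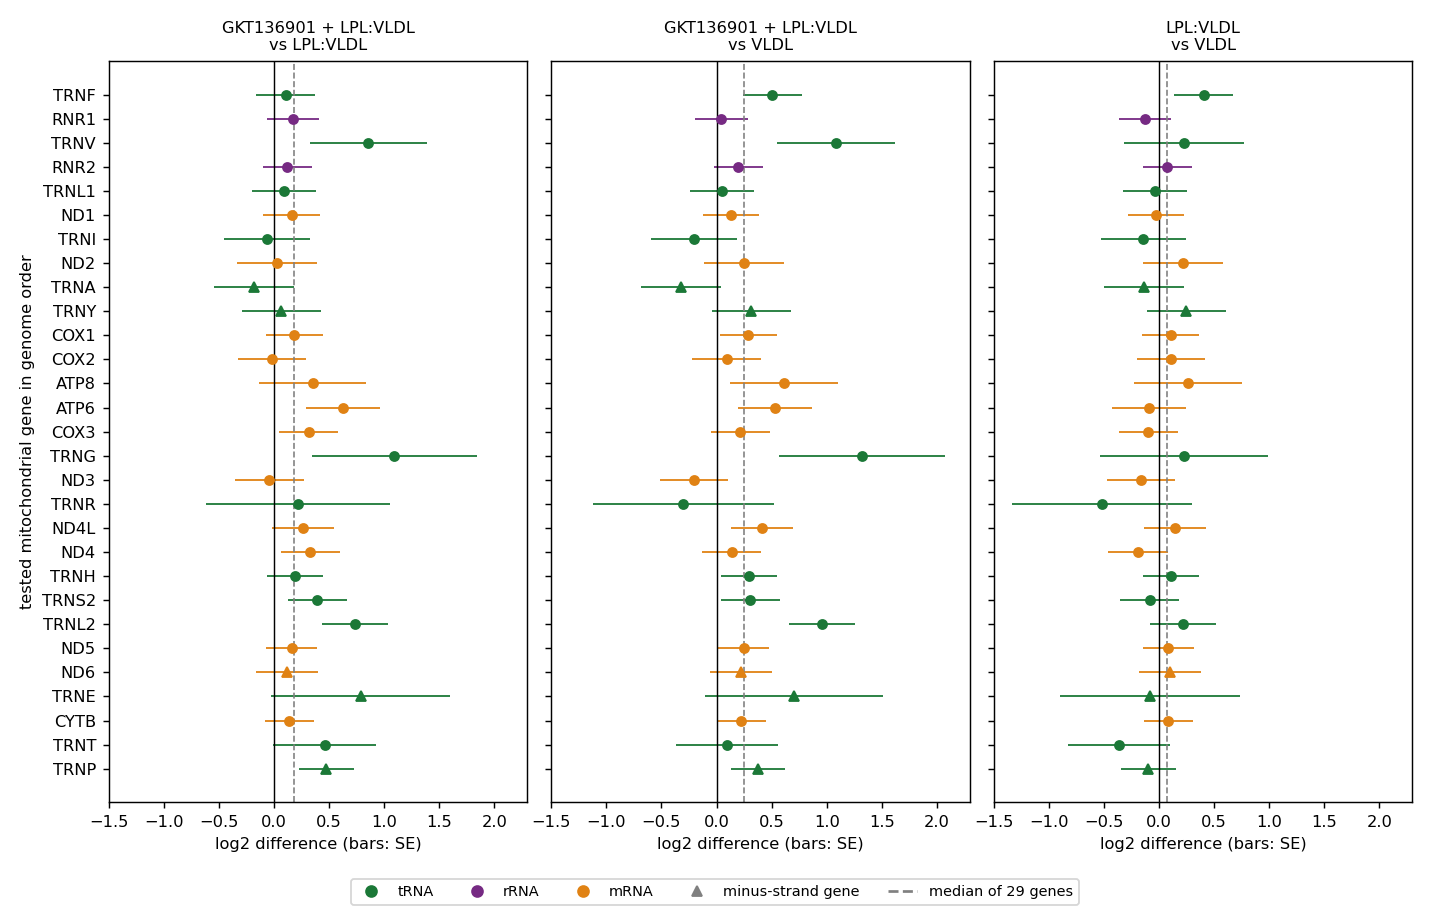
Log2 difference with its standard error for each of the 29 tested mitochondrial genes in genome order, in 1 panel per comparison, with colour for the class and triangles for minus-strand genes. In both panels with GKT136901 + LPL:VLDL 25 of 29 points lie right of 0, with medians of 0.18 and 0.25, and in the panel of LPL:VLDL against VLDL 15 of 29 do.

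The summed counts of the mitochondrial genome, as CPM of the library total without TMM factors, were 3324 CPM ± 1044 with GKT136901 + LPL:VLDL, 2842 CPM ± 1045 in LPL:VLDL libraries and 2775 CPM ± 900 in VLDL libraries (SD, n = 5 each). The spread within each group exceeded the distances between the groups. Within experiments the sum was higher with GKT136901 + LPL:VLDL than with LPL:VLDL in 5 of 5, and than with VLDL in 5 of 5. With LPL:VLDL it was higher than with VLDL in 3 of 5. After TMM scaling these counts were 5, 5 and 4 of 5.

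By class, plus-strand tRNAs summed to 1682 CPM ± 609 with GKT136901 + LPL:VLDL, 1441 CPM ± 607 in LPL:VLDL libraries and 1278 CPM ± 553 in VLDL libraries. Minus-strand tRNAs summed to 62.5 CPM ± 17.0 with GKT136901 + LPL:VLDL, 47.2 CPM ± 14.6 in LPL:VLDL libraries and 53.2 CPM ± 16.8 in VLDL libraries. Both were higher with GKT136901 + LPL:VLDL than with VLDL in 5 of 5 experiments, also after TMM scaling. LPL:VLDL was higher than VLDL in 5 of 5 experiments for the plus-strand tRNAs under both scalings, a sum that TRNF leads. For the minus-strand tRNAs it was higher in 0 of 5, but in 3 of 5 after TMM scaling, so no direction is given. The rRNAs had 1048 CPM ± 298 with GKT136901 + LPL:VLDL, 883 CPM ± 271 in LPL:VLDL libraries and 953 CPM ± 171 in VLDL libraries (SD, n = 5 each for all sums). They were higher with GKT136901 + LPL:VLDL in 5 of 5 experiments against LPL:VLDL and in 3 of 5 against VLDL, or 4 of 5 in both after TMM scaling.

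mRNA fragments of the plus strand summed to 481 CPM ± 158 with GKT136901 + LPL:VLDL, 425 CPM ± 222 in LPL:VLDL libraries and 444 CPM ± 181 in VLDL libraries (SD, n = 5 each). The sum was higher with the inhibitor in 4 of 5 experiments against LPL:VLDL and in 2 of 5 against VLDL, or 4 of 5 in both after TMM scaling. ND6 had 51.8 CPM ± 10.1 with GKT136901 + LPL:VLDL, 45.6 CPM ± 21.1 in LPL:VLDL libraries and 45.8 CPM ± 12.01 in VLDL libraries. Nuclear tRNAs, the 645 nuclear genes of the same RNA class, summed to 8127 CPM ± 2572 with GKT136901 + LPL:VLDL, 7660 CPM ± 2002 in LPL:VLDL libraries and 7570 CPM ± 2023 in VLDL libraries. Their sum was higher than with VLDL in 2 of 5 experiments for GKT136901 + LPL:VLDL and in 3 of 5 for LPL:VLDL. After TMM scaling it was higher in 5 of 5 for both, so that count was not particular to mitochondrial tRNAs. For GKT136901 + LPL:VLDL against LPL:VLDL it was 4 of 5, or 1 of 5 after TMM scaling.

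The rRNAs show how small the group differences were beside those between experiments. RNR2 had 966, 1051, 1050.5, 609.9 and 654 CPM with GKT136901 + LPL:VLDL, 718, 1165, 962, 611 and 528 CPM in LPL:VLDL libraries and 742, 850.4, 820.1, 743 and 624 CPM in VLDL libraries, in experiments 2 to 6. RNR1 had 167, 207, 172, 116 and 133 CPM with GKT136901 + LPL:VLDL, 136, 216, 155, 94.0 and 102 CPM in LPL:VLDL libraries and 151, 193, 163, 137 and 127 CPM in VLDL libraries. In both rRNAs experiments 3 and 4 were high and experiments 5 and 6 low in every group but 1 pair: with VLDL, RNR2 of experiment 5 (743 CPM) was not below that of experiment 2 (742 CPM). The log2 differences of RNR2 were 0.12 against LPL:VLDL and 0.20 against VLDL for GKT136901 + LPL:VLDL, and 0.076 for LPL:VLDL against VLDL.

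Between the 5 experiments, with the treatment groups taken into account, 13 of the 29 mitochondrial genes differed (edgeR quasi-likelihood F test, adjusted p under 0.05). This is 44.8%, against 11.1% of all tested genes (455 of 4099). The mitochondrial genes have more counts than most: their median level was 14.3 CPM, against 1.61 CPM over all tested genes. Among genes with a mean of at least 10 CPM, 61.8% differed between experiments (291 of 471), and 57.9% of the mitochondrial genes of that level did (11 of 19). At a matched level the share was therefore near the background. The count of 13 was 21 with library-size scaling, 20 at a minimum count of 30, and 8 without the libraries of experiment 2, where 145 of all tested genes differed. The 13 were 6 plus-strand tRNAs, 1 minus-strand tRNA, both rRNAs, 3 plus-strand mRNAs and ND6.

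TRNF averaged 1485 ± 101 CPM in experiment 2, 1354 ± 429 in experiment 3, 1249 ± 359 in experiment 4, 868 ± 106 in experiment 5 and 627 ± 97.1 in experiment 6 (SD, n = 3 each). Experiment 2 was above experiment 6 by 1.26 on the log2 scale (edgeR adjusted p = 2.2e-06). By mean, TRNY, TRNS2, ND1 and ND4 were also highest in experiment 2 and lowest in experiment 6. The log2 differences were 1.59, 0.95, 0.94 and 0.92. By group, TRNF was highest in experiment 2 with VLDL only. With GKT136901 + LPL:VLDL experiment 3 was higher (1728 against 1602 CPM), and with LPL:VLDL experiments 3 and 4 were (1449 and 1536 against 1420 CPM). ND4 was lowest in experiment 6 with VLDL only. Experiment 5 was lower with GKT136901 + LPL:VLDL (27.5 against 33.8 CPM) and with LPL:VLDL (26.8 against 27.1 CPM). The rRNAs, TRNL1 and TRNT were highest in experiment 3 instead. TRNG (glycine), a gene of 210 counts in all, averaged 2.65 ± 1.29 CPM in experiment 2 and 0.0803 ± 0.139 CPM in experiment 6, where 2 of the 3 libraries had no count.

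COX2 averaged 212 ± 29.2 CPM in experiment 2 and 134 ± 6.62 CPM in experiment 5, against 86.6 to 93.9 CPM in experiments 3, 4 and 6, with 1.30 on the log2 scale between experiments 2 and 3 (edgeR adjusted p = 4.7e-06). By group, COX2 had 191, 119.6, 102, 129.8 and 87.1 CPM with GKT136901 + LPL:VLDL, 245, 63.2, 91.9, 129.7 and 107 CPM in LPL:VLDL libraries and 199, 77.0, 86.0, 141 and 87.2 CPM in VLDL libraries, with experiment 2 the highest in each. TRNH, in contrast, was high in experiments 3 and 4. It averaged 142 ± 33.2 CPM in experiment 2, 259 ± 38.6 in experiment 3, 237 ± 13.9 in experiment 4, 158 ± 4.34 in experiment 5 and 144 ± 18.5 in experiment 6 (edgeR adjusted p = 2.1e-05), with experiments 2 and 6 0.028 apart on the log2 scale. It held 7.63% ± 1.06 of the mitochondrial tRNA counts in experiment 2, against means of 13.6% to 15.9% in the other experiments. TRNS2, which touches TRNH, had its highest mean in experiment 2, at 116 ± 26.3 CPM, against 104 ± 40.5 CPM in experiment 4, so these spreads overlapped. By group, TRNS2 was highest in experiment 2 with LPL:VLDL only. With GKT136901 + LPL:VLDL experiment 4 was higher (151 against 141 CPM), and with VLDL experiment 3 was (96.8 against 88.6 CPM). The highest means of these neighbours thus lay in different experiments, but for TRNS2 this did not hold in each group.

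ND6, whose counts can come from either strand, was the 1 gene of the 13 that was highest in experiment 5. It had 46.1, 48.9, 39.0, 67.3 and 55.5 CPM with GKT136901 + LPL:VLDL, 44.0, 29.5, 27.6, 74.7 and 60.6 CPM in LPL:VLDL libraries and 40.1, 34.3, 32.0, 62.2 and 51.9 CPM in VLDL libraries, and in each group its libraries of experiments 5 and 6 were the highest. As a share of the mitochondrial mRNA counts, ND6 held 6.44% to 8.86% in the 9 libraries of experiments 2 to 4 and 12.9% to 16.8% in the 6 libraries of experiments 5 and 6. The highest of the 9 had a 95% Wilson interval of 7.85% to 9.98%, and the lowest of the 6 one of 11.9% to 13.9%. These intervals did not meet, but they cover counting error only, and libraries of a group differed by more than that. The grouping into experiments 2 to 4 and 5 and 6 was not among the planned comparisons, so this is a description and not a test. Minus-strand genes as a whole held 2.33% to 3.23% of the mitochondrial counts in experiments 2 to 4 and 4.22% to 5.18% in experiments 5 and 6. The minus-strand tRNAs did not show this split: their share of the mitochondrial tRNA counts was 2.56% to 4.29% in experiments 2 to 4 and 3.31% to 5.78% in experiments 5 and 6. Their summed level was 40.9 CPM in experiment 5 and 41.7 CPM in experiment 6, below the 80.4, 52.4 and 56.0 CPM of experiments 2, 3 and 4. These sums are CPM of the library total without TMM factors, unlike the ND6 values above.

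**Figure D4:**
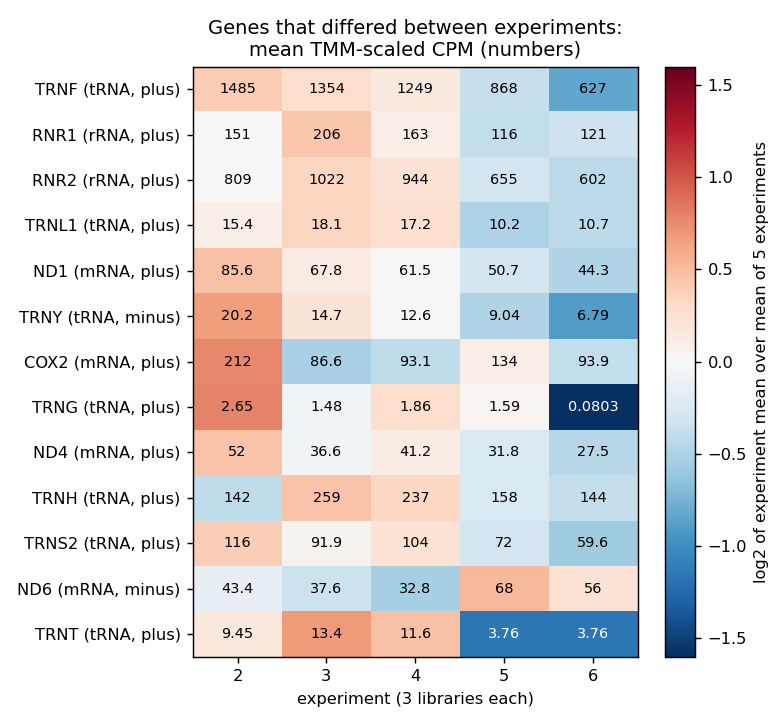
Mean TMM-scaled CPM per experiment (3 libraries each, numbers in the cells) of the 13 mitochondrial genes that differed between experiments, coloured by the log2 ratio to the mean of the 5 experiments. Experiments 5 and 6 hold the lowest mean in 10 of the 13 rows, ND6 is highest in experiment 5, and TRNH is highest in experiments 3 and 4.

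**Figure D5:**
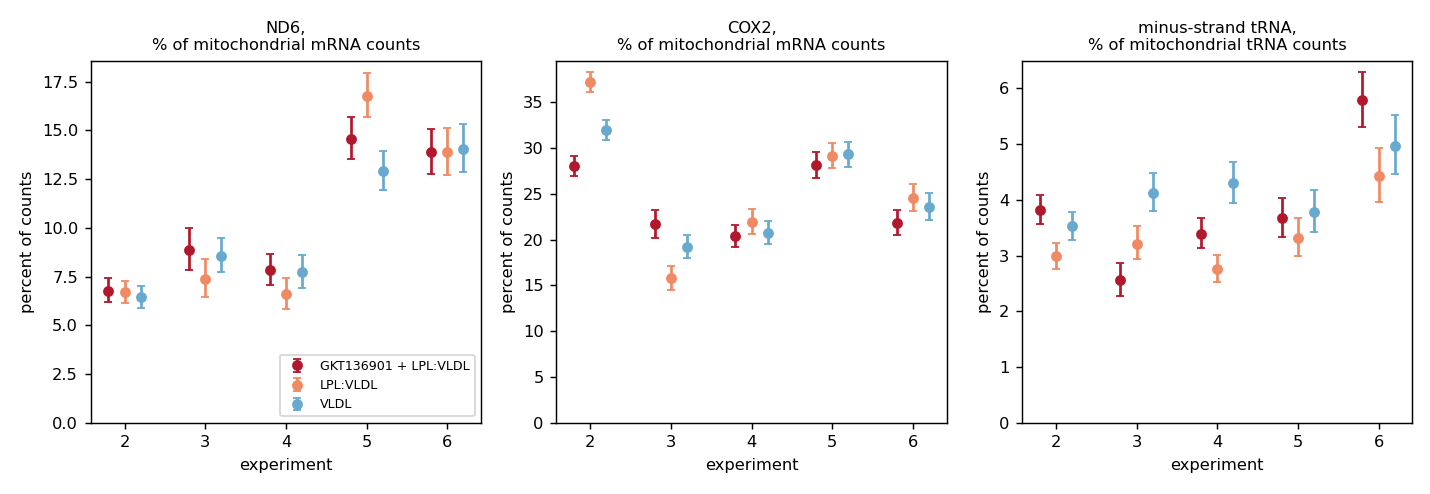
Share of ND6 and of COX2 in the mitochondrial mRNA counts, and of minus-strand tRNAs in the mitochondrial tRNA counts, for each library by experiment, with 95% Wilson intervals and colour for the group. The ND6 share is 6.44% to 8.86% in experiments 2 to 4 and 12.9% to 16.8% in experiments 5 and 6 in all 3 groups.

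Other RNA also had another level in experiment 2. The mitochondrial sum averaged 4370 CPM of the library total in experiment 2 and 1840 CPM in experiment 6 (n = 3 each). Nuclear mRNA fragments averaged 14362 CPM in experiment 2, against 8999 to 10121 CPM in the others, and the 17 myeloid genes 102 CPM, against 32.3 to 36.6 CPM. The Y RNAs averaged 32043 CPM in experiment 2, against 6368 to 10208 CPM. Nuclear tRNAs were lowest in experiment 2, with 4931 CPM in experiment 2 and 6782 to 10283 CPM in the others, and 77 of their 163 tested genes differed between experiments. The part of these in the mitochondrial values was not tested.

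Nuclear genes that serve the mitochondrial genome were mostly too low in small RNA to be tested. Of 46 genes of mitochondrial RNA synthesis and processing in the count table, which include the polymerase POLRMT and the punctuation enzymes, 9 were tested. By edgeR 0 of the 9 were called in any of the 3 comparisons, and 5, 4 and 3 lay above 0 for GKT136901 + LPL:VLDL against LPL:VLDL, for GKT136901 + LPL:VLDL against VLDL and for LPL:VLDL against VLDL. Of 22 genes for loading amino acids on mitochondrial tRNAs, 7 were tested, 0 were called, and 7, 3 and 2 lay above 0 in that order. Of 82 nuclear subunits of the respiratory chain and the ATP synthase, 10 were tested, 0 were called, and 4, 3 and 4 lay above 0. Nuclear tRNAs had 163 tested genes, 0 called, and 69, 116 and 116 above 0, with medians of -0.036, 0.093 and 0.18. At an unadjusted p under 0.05 were 0, 0 and 0 of the first list and of the second, 0, 1 and 0 of the third, and 1, 1 and 4 nuclear tRNAs, and DESeq2 and limma voom called no gene of the whole table.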

How the data were processed

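Small RNA was sequenced from 15 libraries (TRIzol, DNase and a NEBNext small RNA kit, per the labels' protocols). The authors deposited raw counts per gene: reads were counted by featureCounts 2.0.6 over exons with a RefSeq annotation of GRCh38, per the file headers, with no option given for the strand, for reads mapped several times or for genes that overlap. fastp 0.24.0 and STAR 2.7.11b were used on hg38, per the submitters' processing notes, which also name R 4.4.2, edgeR 4.4.2 and DESeq2 1.46 without a role.

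Genes were kept by filterByExpr (minimum count 10, minimum total count 15), scaled by TMM and tested with edgeR 4.0.16 (R 4.3.3), a two-sided quasi-likelihood F test in 1 model of 3 groups with 12 residual degrees of freedom, and Benjamini-Hochberg adjustment over all 4099 genes tested. The experiment was tested in a model of group and experiment (8 residual degrees of freedom). Alternatives were other scalings and filters, DESeq2 1.42.0, limma voom (limma 3.58.1), the experiment as a block, 2 groups only and libraries left out in turn. The experiments in the labels pair the libraries (correlation of deviations 0.066 to 0.38 in 15 same-number pairs, median of other pairs -0.070). No 2 libraries of a group differed by sampling noise alone (chi-square of at least 11.1 per degree of freedom). Intervals and floors cover counting error only, since reads carry no molecular identifiers. Tests were tried on simulated data whose spread was set below that of these libraries. That trial does not show how many true changes the tests would find here. The coordinates of all 37 genes equalled those of GENCODE 29 genes, from which sequences were taken. Genes given in full were the most abundant of each class and strand, ND6, both rRNAs, the 3 lowest unadjusted p-values of each test, and genes without overlap between groups. Genes and lists were chosen with earlier results of these data known, and the background at 10 CPM after seeing the data.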

Additional observations from a re-analysis of the deposited data

Results flagged for a closer look

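Of 66 groups of 5 libraries examined for a library far from the others, 7 had one, and chance flags about 1 in 20 groups. In LPL:VLDL, replicate 2 (experiment 3) stood above the other libraries in ATP6, with 10.5 CPM against 5.69 to 6.84 CPM, and in TRNV, with 2.63 CPM against 0.868 to 1.04 CPM. The mitochondrial mRNA sum, as CPM of the library total, was highest in replicate 1 (experiment 2) of LPL:VLDL, at 877 CPM against 305 to 425 CPM, and of VLDL, at 815 CPM against 364 to 457 CPM. For the plus-strand mRNAs alone these replicates had 819 CPM against 283 to 361 CPM in LPL:VLDL and 763 CPM against 313 to 398 CPM in VLDL. In GKT136901 + LPL:VLDL, replicate 2 had a total count of 5076917, against 8360737 to 9619561 in the others.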

How the results depend on the processing

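Between the treatment groups 0 genes were called by edgeR under every alternative run, with 1 exception: for LPL:VLDL against VLDL, 1 gene outside the mitochondrial genome was called with the experiment as a block, and 0 to 2 when a replicate was also left out. With the block 4, 6 and 1 of the 29 mitochondrial genes had an unadjusted p under 0.05 for GKT136901 + LPL:VLDL against LPL:VLDL, GKT136901 + LPL:VLDL against VLDL and LPL:VLDL against VLDL, none past adjustment; the pairing changed no other call. The number of mitochondrial genes above 0 was 20 to 27 for GKT136901 + LPL:VLDL against LPL:VLDL and 20 to 26 against VLDL over all alternatives, with 24 tested at the minimum count of 30 and 33 without a filter. The median of these genes was 0.088 to 0.29 for GKT136901 + LPL:VLDL against LPL:VLDL and 0.14 to 0.31 against VLDL with a library left out. Sums of classes were also compared after TMM scaling, chosen after seeing the data, and for LPL:VLDL against VLDL this turned the minus-strand tRNAs from 0 to 3 of 5 experiments higher and the plus-strand mRNAs from 1 to 4. In the same comparison 9 of the 29 mitochondrial genes lay above 0 with library-size scaling, and their median of 0.076 changed sign under many settings. This median was -0.078 with library-size scaling, -0.050 without a filter, -0.019 at a minimum count of 30 and -0.020 with limma voom. It was -0.080 to 0.11 with a library left out, and -0.0030, -0.061 and -0.0067 in the blocked fit without replicate 1, 2 or 3. The data therefore give LPL:VLDL against VLDL no direction. TRNL2 had -0.050 in the blocked fit without replicate 2. Between experiments the 13 mitochondrial genes became 21 with library-size scaling, 20 at a minimum count of 30, and 8 to 13 with an experiment left out. The 8, and 145 of all genes (up to 460 otherwise), came without replicate 1 (experiment 2). Single genes were followed only in fits that kept both their highest and their lowest experiment. In those fits TRNL1 was not called without a filter or without replicate 3 or 5, ND4 not without a filter, and TRNG not with limma voom. More genes lost their call than these, since 9 were called without replicate 5 and 8 without replicate 1. Which ones is not given here. The cause was not tested. Genes with few counts, such as TRNV and TRNG, are limited by depth.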
